A study of Sus scrofa with 10 samples.

Results

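The ovarian expression of claudins and tight junction genes was described for 9 listed genes, CLDN1, CLDN3, CLDN5, CLDN10, CLDN11, CLDN12, CLDN23, OCLN and TJP1. A listed gene was taken as a member when a locus typed as protein-coding carried its symbol, and 6 of the 9 genes (CLDN1, CLDN11, CLDN12, CLDN23, OCLN and TJP1) were found in this way among 19972 protein-coding loci of 43499 loci in all. Each of these 6 symbols had 1 protein-coding locus. The locus of CLDN10 carried only a gene identifier that the name table pairs with CLDN10, and the locus of CLDN3 was typed as a pseudogene in the deposited table, although RefSeq lists CLDN3 as protein-coding. Both are given beside the members as listed genes outside the rule. CLDN5 had no locus of its own name and was not analysed here.

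RNA was sequenced from the ovaries of 10 gilts aged 234 days, 5 in each of 2 groups, and each pig gave its own library. All gilts were born on the same day and were given altrenogest, a progestin that holds back oestrus, from an age of 210 days (20 mg daily over 18 days), followed by 2 days without it. One group was then injected with 1000 IU of recombinant pig follicle-stimulating hormone (rpFSH, written fpFSH in the sample labels), and the other with saline (called untreated in the labels). Surface follicles were removed before the tissue was frozen. The question was which of these genes differed in level between the groups. The pigs are called control 1 to 5 and rpFSH 1 to 5 by their numbers in the labels. The libraries held 64873797 to 75114003 counts, and 3 counts, the smallest number told apart from 0 (counting error only), were worth 0.0399 to 0.0462 CPM. Levels are in FPKM, which divides by library size and by a length for each locus. How that length was set for a locus is not stated. In control 1, TJP1 had 382 CPM and an FPKM of 6.20, whereas CLDN11 had 38.8 CPM and an FPKM of 16.3. Comparisons of level between genes therefore hold for FPKM only.

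Tight junctions are belts of membrane strands that seal the space between neighbouring epithelial or endothelial cells and hold apart their upper and lower surfaces. Claudins form the strands and set which ions and water pass between the cells, occludin lies along the strands, and zonula occludens proteins tie them to actin inside the cell. In the ovary, tight junctions are known from the surface epithelium, the vessels and the wall of the follicle, where they change as follicles grow and rupture.

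Libraries that stood apart were looked for before the genes were compared. Epithelial markers (12 of 15 listed genes with a locus of their own) had a summed FPKM of 18.1, 84.1, 9.31, 9.20 and 105 in controls 1 to 5. In rpFSH 1 to 5 the same sum was 7.65, 7.06, 6.83, 8.80 and 7.69. Every rpFSH pig lay below every control pig (two-sided exact permutation test, p = 0.00794, the smallest that 5 against 5 pigs can give), and controls 2 and 5 stood far above all other pigs. The marker lists were chosen with earlier results of these data known, so p-values of their sums are a description only. The separation rested on MAL2 (3.93 to 14.0 in control pigs and 0.678 to 3.24 in rpFSH pigs). Without MAL2, an alternative chosen after seeing the data, control 3 (2.96) lay below all rpFSH pigs (4.41 to 6.15). The two-sided exact permutation test was then not passed (p = 0.310), while the log2 difference of the sum was -1.40, against -1.72 with MAL2. By edgeR, 8 of the 12 were called lower in the rpFSH treatment group, where 2.58% of all protein-coding loci tested were called lower. Without controls 2 and 5 it called 1 marker lower (MAL2), beside 117 of the 15170 loci tested. MAL2 was the most abundant epithelial marker in 6 pigs, while WFDC2, with the highest mean (5.88), owed it to controls 2 and 5 (29.7 and 25.1, against at most 0.941 in the others). ELF3 had a count of 0 in control 3 and KRT18 in rpFSH 2. Multiciliated markers (8 of 11) summed to 5.40, 23.6, 4.73, 5.44 and 49.3 in controls 1 to 5. They summed to 2.79, 3.07, 5.17, 4.61 and 4.98 in rpFSH 1 to 5, again with controls 2 and 5 apart (p = 0.0397, two-sided exact permutation test). Of these 8, edgeR called 6 lower with all pigs and 0 without controls 2 and 5. CCDC39 was the most abundant of them in 7 pigs, and DNAH9, with the highest mean (2.47), in control 3 alone. MCIDAS, which starts the multiciliated program, had a count of 0 in every pig other than controls 2 and 5. FOXJ1 had a count of 0 in rpFSH 1 and 5, TEKT1 in rpFSH 4 and RSPH1 in rpFSH 5. Marker sums cannot tell a lower number of such cells from less RNA per cell, which holds for every gene of these bulk samples.

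Markers of steroid-making cells set a different group of pigs apart. Theca and luteal markers (6 of 7) summed to 174, 2546, 277, 201 and 57.3 in controls 1 to 5. In rpFSH 1 to 5 they summed to 1324, 152, 29.2, 365 and 111. Control 2 and rpFSH 1 were far above the other pigs and the groups overlapped (p = 0.683, two-sided exact permutation test). INSL3 was the most abundant of these markers in 6 pigs. CYP11A1 had the highest mean (284) and led in control 2, rpFSH 1 and rpFSH 4 (1758, 787 and 178, against 4.85 to 34.4 in the other 7 pigs), and none of the 6 was at 0 in any pig. Granulosa markers (4 of 8, led, here and below by the mean over the 10 pigs, by INHA) summed to 3.57 to 79.0 in control pigs and 9.44 to 79.2 in rpFSH pigs, and endothelial markers (8 of 10, led by VWF) to 40.0 to 107 and 59.8 to 98.9. Stroma markers (6 of 6, led by COL3A1) summed to 524 to 1402 in control pigs and 411 to 1783 in rpFSH pigs, oocyte markers (8 of 9, led by GDF9) to 5.28 to 22.3 and 11.2 to 19.9, and leukocyte markers (4 of 6, led by MRC1) to 9.98 to 19.3 and 7.05 to 21.4. Of the 6 stroma markers, edgeR called 1 lower with all pigs, beside 2.58% of all loci tested, and 0 without controls 2 and 5. FIGLA had a count of 0 in controls 1, 2 and 5 and rpFSH 1 and 4, and NOBOX in control 2. Smooth muscle and pericyte markers (6 of 6, led by ACTA2) were highest in control 5, at 1822 against 141 to 564 in the other pigs. Mesothelial and ovarian surface markers (4 of 7, led by UPK1B) were likewise highest in control 5, at 13.0 against 1.01 to 4.62, and LRRN4 had a count of 0 in control 5 and rpFSH 2 to 5.

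The strand proteins came first. CLDN11, known as the claudin of the myelin sheath and of the seal between Sertoli cells of the testis, lay on chromosome 13 (locus MSTRG.8968, 109075424 to 109090190, plus strand). Its FPKM was 16.3, 205, 6.08, 5.05 and 6.28 in controls 1 to 5. It was 27.4, 14.8, 9.45, 27.0 and 6.05 in rpFSH 1 to 5. Control 2 was far above the other 9 pigs and the groups overlapped. Control pigs had a mean of 47.7 ± 88.0 and rpFSH pigs of 16.9 ± 9.86 (SD, n = 5 each), and the medians were in the opposite order, at 6.28 and 14.8. On log2(FPKM + 1) the difference was -0.05, and a two-sided exact permutation test gave p = 0.960. From the counts, the log2 fold change was -1.42 with all pigs and 1.08 without control 2 (edgeR, called in neither), so that the direction rested on that pig.

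**Figure D1:**
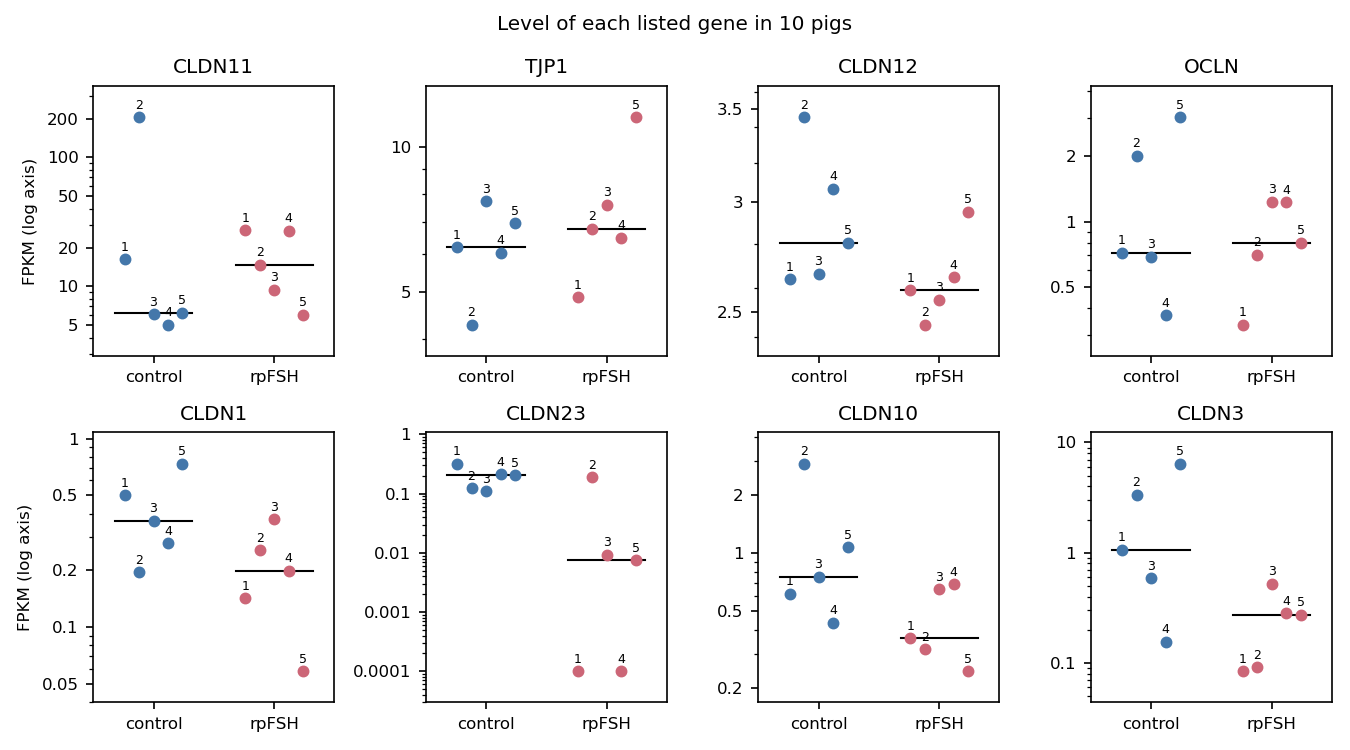
FPKM (log axis) of the 8 listed genes with a locus in control and rpFSH pigs, with 1 point per pig, the pig's number above it and a line at the group median. CLDN11 reached 205 in control 2, CLDN3 and OCLN were highest in controls 5 and 2, and CLDN12 stayed between 2.45 and 3.46 in all pigs.

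The order of the pigs in CLDN11 was near that in the theca and luteal markers at its upper end. Control 2, rpFSH 1 and rpFSH 4 had the 3 highest values of both. STAR, which brings cholesterol into the mitochondria, had an FPKM of 532 in control 2, 448 in rpFSH 1 and 121 in rpFSH 4, and at most 5.67 in the other pigs. Over 10 pigs, Pearson's r of CLDN11 with the theca and luteal sum, both as log2(value + 1), was 0.775 (two-sided permutation p = 0.00647, adjusted p = 0.226) and Spearman's rho was 0.576 (permutation p = 0.0862, adjusted p = 0.831). This was among 35 relations of 5 genes with 7 marker sums, chosen after the values were seen, of which 0 had an adjusted p under 0.05. Without the 2 pigs farthest from the median of the marker sum r was 0.328, so the relation rested on those pigs. TJP1 ran opposite to the same sum, at r = -0.700 (permutation p = 0.0238, adjusted p = 0.417) and rho = -0.697 (permutation p = 0.0309, adjusted p = 0.681), and this rested on the same pigs (r = -0.256 without them). Of the other 33 relations, CLDN11 with the oocyte sum had a Pearson p under 0.05 before adjustment, and TJP1 with the smooth muscle and pericyte sum a Spearman p. The part of these cells in the level of CLDN11 was not tested.

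**Figure D2:**
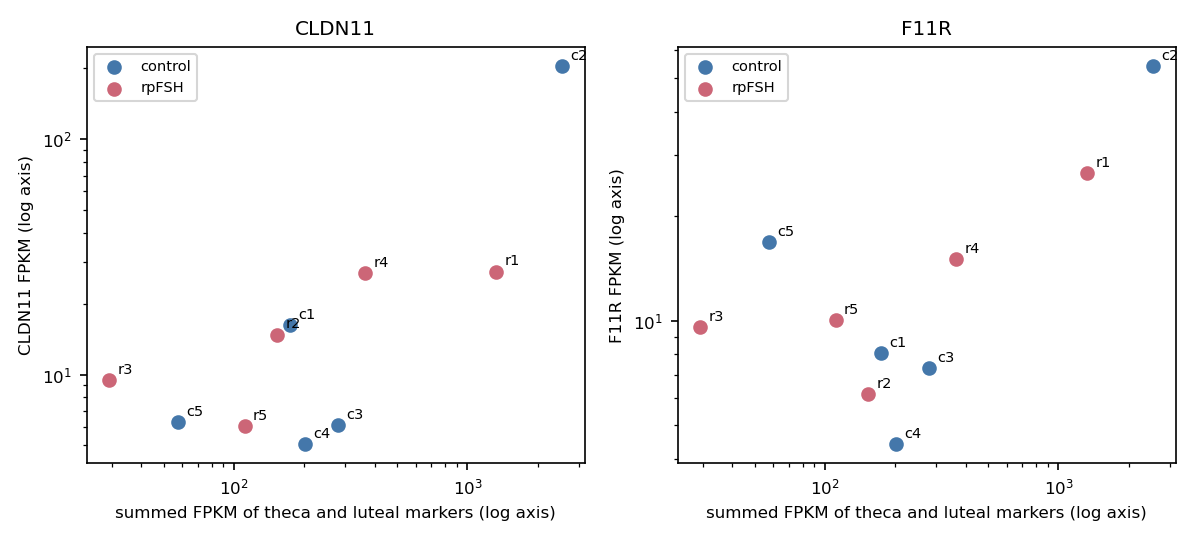
FPKM of CLDN11 (left) and of F11R (right) against the summed FPKM of 6 theca and luteal markers, both on log axes, with 1 point per pig (c, control; r, rpFSH). Control 2, at a sum of 2546, was highest in both genes, and rpFSH 1 and rpFSH 4 had the next highest sums.

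CLDN12, a claudin whose tail lacks the usual anchor for zonula occludens proteins, lay on chromosome 9 (MSTRG.34849, 70499573 to 70510805, plus strand) and was the steadiest of the 8 genes. Its FPKM was 2.64, 3.46, 2.66, 3.07 and 2.81 in controls 1 to 5. It was 2.59, 2.45, 2.55, 2.65 and 2.95 in rpFSH 1 to 5. The highest pig was 1.41 times the lowest, 4 of 5 rpFSH pigs lay below the control median and the groups overlapped. The means were 2.93 ± 0.341 and 2.64 ± 0.191 (SD, n = 5 each), and a two-sided exact permutation test gave p = 0.135. By edgeR the log2 fold change was -0.08 and was not called.

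CLDN1, a sealing claudin best known from the skin barrier, lay on chromosome 13 (ENSSSCG00000040904, 127710737 to 127730765, minus strand). Its FPKM was 0.501, 0.195, 0.367, 0.279 and 0.737 in controls 1 to 5. It was 0.142, 0.257, 0.375, 0.199 and 0.0582 in rpFSH 1 to 5. Controls 5 and 1 were highest and rpFSH 5 lowest, and the groups overlapped. The means were 0.416 ± 0.212 and 0.206 ± 0.119 (SD, n = 5 each), and a two-sided exact permutation test gave p = 0.0873. Its log2 fold change of -0.92 was not called by edgeR, and was called only without rpFSH 3, at -1.27.

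CLDN23, a little-studied claudin, lay on chromosome 17 (ENSSSCG00000006966, 483635 to 484686, minus strand) and had only 108 counts over the 10 pigs. The counts were 27, 12, 9, 20 and 20 in controls 1 to 5. They were 0, 18, 1, 0 and 1 in rpFSH 1 to 5. All control pigs were above the floor of 3 counts, whereas 4 of 5 rpFSH pigs were at or under it and rpFSH 2 lay within the range of the control group. In FPKM the means were 0.195 ± 0.0842 and 0.0411 ± 0.0826 (SD, n = 5 each), and the difference passed the two-sided exact permutation test (p = 0.0238, not adjusted for the 8 genes tested in this way). From the counts, its log2 fold change was -2.05 and was not called by edgeR. Without rpFSH 2 it was -4.73 and called, a value set by the remaining 4 rpFSH pigs, which had at most 1 count each. At this depth the levels of those 4 pigs could not be told apart from 0. CLDN23 also passed the filter of a mean FPKM of 0.1 only through the control group, so its tests and calls, here and below, are a description only.

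CLDN10, which forms pores for ions between cells, lay on chromosome 11 (MSTRG.5389, 65027695 to 65145074, plus strand). Its FPKM was 0.617, 2.90, 0.755, 0.436 and 1.07 in controls 1 to 5. It was 0.363, 0.318, 0.652, 0.688 and 0.244 in rpFSH 1 to 5. Control 2 was highest and control 5 next, all 5 rpFSH pigs lay below the control median, and the groups overlapped. The means were 1.16 ± 1.00 and 0.453 ± 0.203 (SD, n = 5 each), and a two-sided exact permutation test gave p = 0.0556. Its log2 fold change of -1.26 was called by edgeR from the unadjusted P, with an adjusted p of 1.00. The call was lost without control 2 (-0.59), without controls 2 and 5 (-0.34), and without control 5 or rpFSH 1, 2 or 5 (-1.29, -1.18, -1.17 and -1.11).

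CLDN3, a sealing claudin of many simple epithelia, lay on chromosome 3 (MSTRG.20351, 11018900 to 11020198, minus strand). Its FPKM was 1.07, 3.36, 0.587, 0.157 and 6.43 in controls 1 to 5. It was 0.0842, 0.0916, 0.525, 0.283 and 0.275 in rpFSH 1 to 5. Controls 5 and 2 were highest, all 5 rpFSH pigs lay below the control median, and control 4 lay within the range of the rpFSH treatment group. The means were 2.32 ± 2.61 and 0.252 ± 0.180 (SD, n = 5 each), and a two-sided exact permutation test gave p = 0.0476, not adjusted. As its locus was not typed as protein-coding, it was tested only when all loci were fitted together, with a log2 fold change of -3.18 that edgeR called from the unadjusted P (adjusted p = 0.848). Without controls 2 and 5 the difference on log2(FPKM + 1) was -0.33 in place of -1.08 (p = 0.214, two-sided exact permutation test).

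OCLN encodes occludin, the membrane protein that runs along the claudin strands, and lay on chromosome 16 (MSTRG.14796, 47600180 to 47652436, plus strand). Its FPKM was 0.721, 2.02, 0.690, 0.371 and 3.03 in controls 1 to 5. It was 0.336, 0.706, 1.24, 1.23 and 0.801 in rpFSH 1 to 5. Controls 5 and 2 were the highest pigs, as in CLDN3, and the other 8 pigs of the groups overlapped. The means were 1.37 ± 1.12 and 0.861 ± 0.381 (SD, n = 5 each), and a two-sided exact permutation test gave p = 0.437. By edgeR its log2 fold change was -0.58 with all pigs and 0.61 without controls 2 and 5, called in neither.

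TJP1 encodes ZO-1, the scaffold that ties the strands to actin, and lay on chromosome 1 (MSTRG.1839, 144930347 to 145196016, minus strand). Its FPKM was 6.20, 4.28, 7.73, 6.04 and 6.96 in controls 1 to 5. It was 4.89, 6.77, 7.60, 6.49 and 11.5 in rpFSH 1 to 5. The pig rpFSH 5 was highest and control 2 lowest, and the groups overlapped. The means were 6.24 ± 1.29 and 7.46 ± 2.48 (SD, n = 5 each), and a two-sided exact permutation test gave p = 0.389. Its log2 fold change was 0.33 and not called by edgeR, the only one of the 6 members above 0 with all pigs. A further 8 unannotated loci carried the name TJP1 and together held 27.6% as many counts, and 6 of them lay inside TJP1 on the opposite strand. The methods describe dUTP in the second cDNA strand, which keeps the strand of a read, but whether the authors counted by strand is not stated, so how far reads of TJP1 and of these loci were separated is not known.

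Among the 6 members, edgeR called 0 (unadjusted P under 0.05 and a log2 fold change above 1 or below -1), where 3.09% of the 15170 protein-coding loci tested were called. At an unadjusted P under 0.05 with any fold change it was also 0 of 6, against 4.76% of the loci tested. CLDN10, a listed gene outside the rule, was called in the same fit (log2 fold change of -1.26). It is counted neither here nor in the tight junction list below. DESeq2 called 0 of 6 members (3.47% of all loci tested) and gave CLDN11 no P, and limma called 1 of 6, CLDN23 (1.13%). That call is a description only, as CLDN23 passed the filter only through the control group. For limma, P came from log2(FPKM + 1) and the fold change from the ratio of group mean FPKM (-2.24 for CLDN23), whereas on log2(FPKM + 1) itself CLDN23 differed by -0.20, short of the limit. With adjustment over all loci tested, edgeR found 0 members and 0% of loci at an adjusted p under 0.05, the smallest being 0.992, where DESeq2 found 86 loci and 0 members and limma 0 loci. The groups overlapped in FPKM in all 6 members, and 0.626% of loci tested had groups that did not overlap. The median log2 fold change was -0.75 over the 6 members and -0.01 over all loci tested. It was below 0 in 5 of 6 members, beside 51.4% of all loci tested. Without controls 2 and 5, CLDN11 and OCLN were above 0 as well as TJP1.

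**Figure D3:**
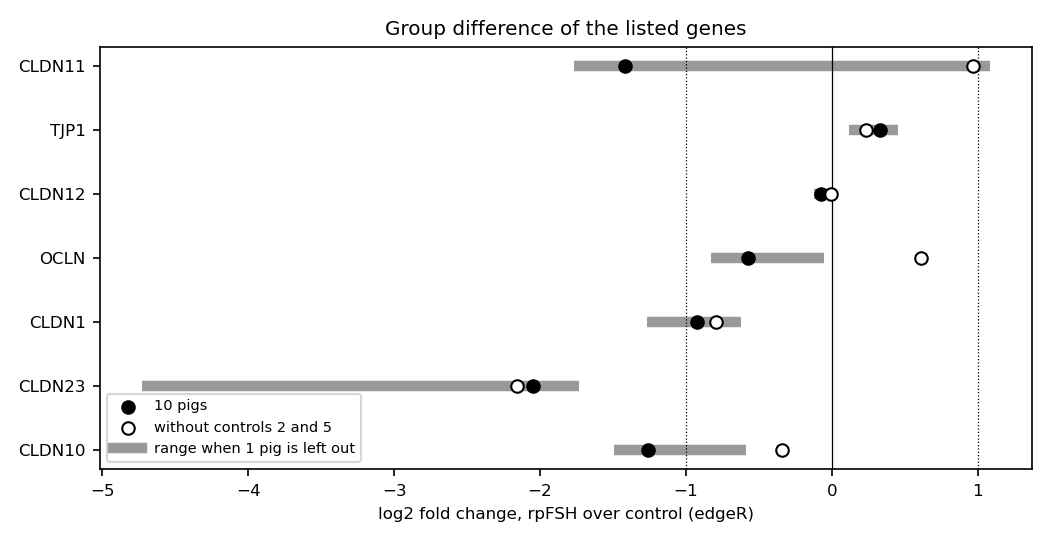
Log2 fold change of the rpFSH treatment group over the control group (edgeR) for the 6 members and CLDN10. Filled points are all 10 pigs, open points leave out controls 2 and 5, grey bars span the values when 1 pig is left out, and dotted lines mark -1 and 1; CLDN11 moved from -1.42 to 0.96 and OCLN from -0.58 to 0.61.

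By mean FPKM over the 10 pigs, the order of the 8 genes was CLDN11 (32.3), TJP1 (6.85), CLDN12 (2.78), CLDN3 (1.29), OCLN (1.11), CLDN10 (0.804), CLDN1 (0.311) and CLDN23 (0.118). By counts over the 10 pigs TJP1 (299804) was above CLDN11 (56170), so the order depends on the length that FPKM divides by. Neighbours were compared within pigs by two-sided exact sign-flip tests of the log2 ratio. By these exact tests CLDN11 and TJP1 were not told apart, with CLDN11 the higher in 6 of 10 pigs (p = 0.0781). TJP1 was above CLDN12 in 10 of 10 pigs (exact p = 0.00195) and CLDN12 above CLDN3 in 9 of 10 (exact p = 0.00586). Also not told apart were CLDN3 and OCLN (CLDN3 the higher in 3 of 10 pigs, exact p = 0.0742) and OCLN and CLDN10 (6 of 10, exact p = 0.0645). CLDN10 was above CLDN1, and CLDN1 above CLDN23, in 10 of 10 pigs (exact p = 0.00195 each). The mean of CLDN11 was raised by control 2, and its median FPKM was 12.1, still the highest of the 8 genes. The place of CLDN3 rested on controls 2 and 5, and by median FPKM it came after OCLN and CLDN10 (0.404, 0.761 and 0.634).

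Among the claudins with a locus of their own, CLDN11 led in the tissue. Of 24 claudins listed, 19 had a locus of their own, 14 of these averaged an FPKM of 0.1 or more, 4 (CLDN9, CLDN14, CLDN16 and CLDN25) had a count of 0 in every pig, and CLDN17 had 13 counts over the 10 pigs. The summed FPKM of the 19 claudins was 24.9, 224, 12.5, 12.4 and 33.2 in controls 1 to 5. It was 32.1, 19.7, 16.0, 34.0 and 11.2 in rpFSH 1 to 5. Among these 19, CLDN11 was the most abundant claudin in every pig other than control 5, where CLDN4 led. The share of CLDN11 in this sum was 65.4, 91.3, 48.6, 40.7 and 18.9% in controls 1 to 5. It was 85.4, 74.9, 59.0, 79.4 and 53.8% in rpFSH 1 to 5, and the groups overlapped. Within these 19 claudins, CLDN12 was next in 8 pigs, and CLDN4 led the remaining claudins in controls 2 and 5. CLDN15, left out because its locus holds another gene as well, had a mean FPKM at that locus of 2.82, close to the 2.78 of CLDN12. CLDN20 was left out for the same reason (1.88 at its locus), and CLDN5, CLDN24 and CLDN34 had no locus.

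**Figure D4:**
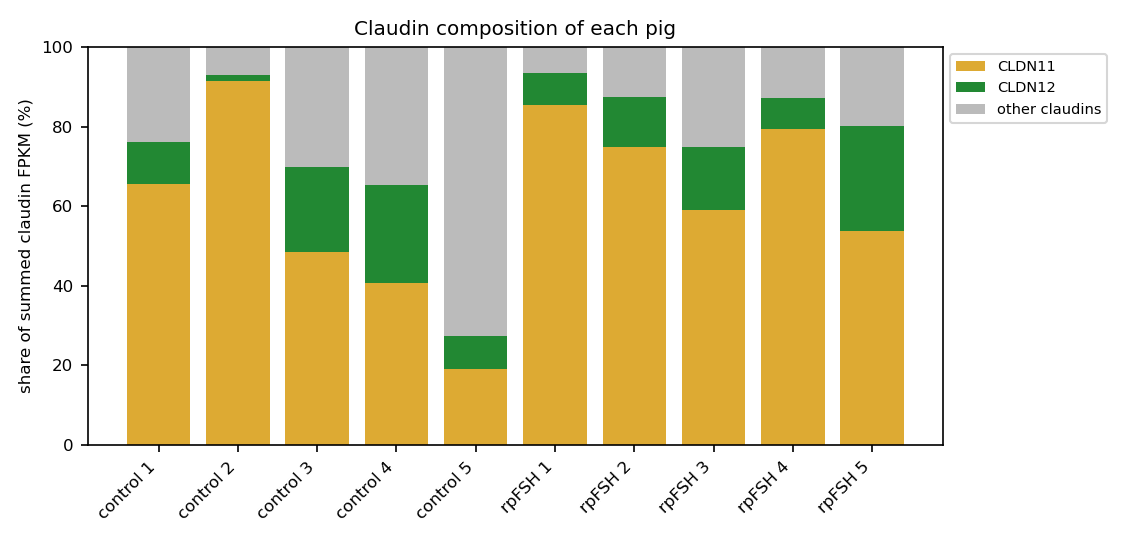
Share of the summed FPKM of 19 claudins held by CLDN11, by CLDN12 and by the other claudins in each pig. CLDN11 held between 18.9% (control 5) and 91.3% (control 2), and the other claudins held the largest part in control 5.

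The tight junction list held 59 further symbols beside the 9 listed genes, of which 43 were tested, 5 shared a locus with another gene, 6 were below a mean FPKM of 0.1 and 5 had no locus. Of the 43 tested, edgeR called 4, all of them lower in the rpFSH treatment group, where 2.58% of all loci tested were called lower. The 4 were 2 of 8 claudins and 2 of 3 MARVEL and tricellular proteins, while 0 of 6 junctional immunoglobulin proteins, 0 of 16 zonula occludens and cytoplasmic plaque proteins and 0 of 10 polarity proteins were called. The median log2 fold change over the 43 genes was -0.14, beside -0.01 over all loci tested. Of the adherens junction list, the neighbouring junction type, 15 of 16 symbols were tested and 2 were called, both lower, with a median of -0.04. DESeq2 called 5 genes of the tight junction list and 2 of the adherens junction list, and limma on log2(FPKM + 1) called 0 of either. With the replicate number as a block, edgeR called 1 of each. By edgeR without a block, adjusted p was 0.992 for each of the 6 called genes. Of these, CLDN2 and NECTIN4 passed the filter of a mean FPKM of 0.1 only through the control group. Their means were 0.260 and 0.442 in control pigs and 0.00581 and 0.0141 in rpFSH pigs. Their calls are therefore a description only, although both genes were also called without the filter. The epithelial markers also hold CLDN4, CLDN7 and CDH1, so that these lists are not separate measurements.

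All 6 called junction genes were highest in controls 2 and 5. CLDN4, a sealing claudin that lies 19.5 kb from CLDN3 on the opposite strand, had an FPKM of 0.315, 5.44, 0.135, 0.0633 and 8.62 in controls 1 to 5, and 0.170, 0.125, 0.519, 0.197 and 0.159 in rpFSH 1 to 5 (log2 fold change of -3.52). A two-sided exact permutation test gave p = 0.294, and without controls 2 and 5 the log2 fold change was 0.54 and not called. CLDN2, a channel for cations and water, had counts of 0, 291, 0, 0 and 67 in controls 1 to 5 and of 0, 4, 4, 0 and 0 in rpFSH 1 to 5 (two-sided exact permutation test, p = 0.444). Both groups held 3 pigs with a count of 0 and no rpFSH pig had more than 4 counts, so its fold change is not given.

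The tricellular protein ILDR1, which gathers at the corners where cells meet, had an FPKM of 0.121, 1.79, 0.0733, 0.178 and 2.04 in controls 1 to 5, and 0.0591, 0.0734, 0.194, 0.111 and 0.133 in rpFSH 1 to 5 (log2 fold change of -2.79; two-sided exact permutation test, p = 0.183). MARVELD3, a relative of occludin, had 0.183, 0.838, 0.0679, 0.243 and 0.649 in controls 1 to 5, and 0.0914, 0.134, 0.0537, 0.151 and 0.0932 in rpFSH 1 to 5 (-1.80; two-sided exact permutation test, p = 0.0476). In both genes controls 2 and 5 were highest and the other pigs of the groups overlapped. Without these pigs edgeR called neither gene, at -0.04 for ILDR1 and -0.54 for MARVELD3.

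Of the adherens junction genes, CDH1, the E-cadherin of epithelia, had an FPKM of 1.37, 7.62, 0.556, 0.912 and 11.8 in controls 1 to 5, and 0.623, 0.860, 1.25, 1.43 and 1.06 in rpFSH 1 to 5 (means of 4.44 and 1.05; two-sided exact permutation test, p = 0.302). NECTIN4, an adhesion protein of epithelia, had 0.0487, 0.922, 0.0001, 0.0570 and 1.18 in controls 1 to 5, and 0.0001, 0.0318, 0.0291, 0.0001 and 0.00944 in rpFSH 1 to 5, where 0.0001 is the value the table writes for a count of 0. Its log2 fold change of -4.72 rested on controls 2 and 5, the only pigs with more than 17 counts (two-sided exact permutation test, p = 0.0635). Without them edgeR called neither gene, at 0.23 for CDH1 and -1.16 for NECTIN4. The part of the epithelial and multiciliated cells that the marker sums of controls 2 and 5 stand for was not tested in any of these genes.

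**Figure D5:**
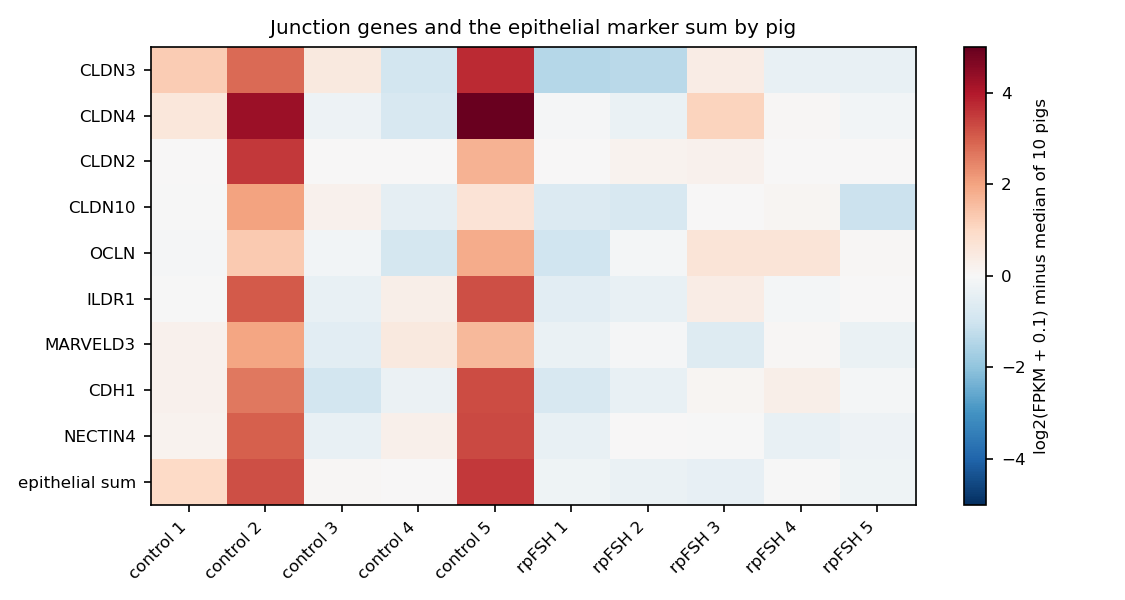
Level of 9 junction genes and of the epithelial marker sum in each pig, as log2(FPKM + 0.1) minus the median of the 10 pigs (red, higher; blue, lower). Controls 2 and 5 were above the median in every gene shown, as in CLDN4 with an FPKM of 5.44 and 8.62.

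The 5 genes of the tight junction list with the highest mean FPKM, beside the 9 listed genes, were F11R (15.8), RAB13 (14.4), CLMP (13.0), YBX3 (10.5) and AMOTL2 (8.34), and none was called. F11R encodes the junctional adhesion molecule JAM-A. Its FPKM was 8.08, 54.2, 7.30, 4.40 and 16.9 in controls 1 to 5. It was 26.7, 6.15, 9.57, 15.1 and 10.0 in rpFSH 1 to 5 (log2 fold change of -0.36; two-sided exact permutation test, p = 0.984). As in CLDN11, control 2 was highest and rpFSH 1 next. Without controls 2 and 5, F11R was called by edgeR in the opposite direction, at 1.09. That fit called 2.02% of all loci tested higher, against 0.508% with all pigs. It also called 3 markers higher, STAR of the theca and luteal markers and TAGLN and DES of the smooth muscle and pericyte markers. RAB13, a small GTPase that carries proteins to the junction, had an FPKM of 7.16 to 14.5 in control pigs and of 11.7 to 30.0 in rpFSH pigs, with the highest value in rpFSH 1 (0.56; two-sided exact permutation test, p = 0.175). CLMP, an adhesion protein, YBX3, a nucleic acid binding partner of ZO-1, and AMOTL2, an angiomotin of the plaque, had log2 fold changes of 0.19, 0.21 and 0.06 (two-sided exact permutation tests, p = 0.571, 0.635 and 0.825).

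How the 8 genes varied among themselves was examined in the 8 pigs other than controls 2 and 5, because these 2 pigs stood apart from the others in CLDN3 and OCLN, and no pooled correlation was taken for pairs with CLDN3, CLDN10, CLDN11 or OCLN. Of 28 pairs, 0 had an adjusted p under 0.05 by Pearson's r or Spearman's rho, and 1 had an unadjusted Pearson p under 0.05. This was CLDN1 with CLDN3, at r = 0.751 (exact permutation p = 0.0305, adjusted p = 0.499) and rho = 0.714 (exact permutation p = 0.0576, adjusted p = 0.775) over 8 pigs, and r = 0.791 without the 2 pigs farthest from the median of CLDN1. With a pseudocount of 0.1 its r was 0.600 (exact permutation p = 0.115), and CLDN1 with CLDN10 was under 0.05 in its place (r = 0.741, exact permutation p = 0.0324). Over all 10 pigs, 0 of 6 pairs of CLDN1, CLDN12, CLDN23 and TJP1 had an adjusted p under 0.05. The highest r was that of CLDN1 with CLDN23, at 0.627 (permutation p = 0.0510, adjusted p = 0.306; rho = 0.650, permutation p = 0.0474, adjusted p = 0.285) and 0.575 without the 2 farthest pigs.

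The protein-coding loci most like each gene over the 10 pigs were sought among 11311 loci that averaged an FPKM of 1 or more, by Pearson's r of log2(FPKM + 1), as a description. OCLN had the closest match, SORBS2 (r = 0.994), followed by MGLL (0.967) and PTGER4 (0.960). CLDN3 was most like ARHGAP24 (0.978), FAM219B (0.976) and EMB (0.972), and CLDN10 most like PIGR (0.976), TNFAIP8 (0.968) and LEPR (0.963). CLDN11 was most like a locus without a gene symbol (0.960), LMBRD2 (0.959) and ELOVL5 (0.952). For CLDN1 the matches were SH3BP4 (0.914) and 2 loci without a gene symbol (0.905 and 0.899), for CLDN12 RPAIN (0.892), PLEKHJ1 (0.890) and YOD1 (0.889), and for CLDN23 ZNF444 (0.945), LSM14B (0.934) and LYRM2 (0.919). TJP1 was most like HACE1 (0.924), a locus that holds NUDT6 and FGF2 (0.906) and BICRA (0.886). Without the 2 pigs farthest from the median of the listed gene, and in the same order of matches, r was 0.983, 0.897 and 0.823 for OCLN, 0.844, 0.869 and 0.802 for CLDN3, 0.895, 0.834 and 0.853 for CLDN10, and 0.805, 0.799 and 0.784 for CLDN11. It was 0.728, 0.889 and 0.794 for CLDN1, 0.852, 0.504 and 0.859 for CLDN12, 0.897, 0.963 and 0.917 for CLDN23, and 0.843, 0.752 and 0.840 for TJP1. How high the closest r would be by chance was not tested.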

How the data were processed

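RNA-seq values of 10 gilt ovaries were used. The authors describe read trimming by Cutadapt, alignment to Sscrofa11.1 by Hisat2 and Bowtie2, and FPKM from StringTie and Ballgown. Counts are deposited in the same table, and their origin is not stated by the authors. The labels name poly(A) selection and NovaSeq where the methods name Ribo-Zero and a HiSeq instrument.

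Counts were tested with edgeR 4.0.16 (quasi-likelihood, TMM, library size over all loci) in R 4.3.3, for protein-coding loci averaging an FPKM of 0.1 or more. A gene was called at an unadjusted P under 0.05 and a log2 fold change above 1 or below -1. Adjusted p (Benjamini-Hochberg) covers all loci tested. For limma 3.58.1 (trend, log2(FPKM + 1)) the fold change was the ratio of group mean FPKM. DESeq2 1.42.0 and the other alternatives are given in the closing section. Single genes and marker sums were compared by exact permutation of log2(FPKM + 1), and correlations by 100000 permutations (seed 1) over 10 pigs or by every pairing over fewer, with numpy 2.4.6 and scipy 1.17.1 under Python 3.11.15. Genes that share a locus with another gene were left out of lists.

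Named junction genes were the called ones (at most 5 per direction and list) and the 5 tight junction genes with the highest mean FPKM, with the 3 most alike loci per listed gene. The members and lists were chosen with earlier results of these data known. Leaving out controls 2 and 5 together was chosen after seeing the data. Positions are those of the table.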

Additional observations from a re-analysis of the deposited data

Results flagged for a closer look

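Values far from the other pigs of their group were looked for in 29 quantities (the 8 listed genes with a locus, the named junction genes and the marker sums), which makes 58 groups of 5 pigs. The gap to the nearest pig, as a share of the group's range, was above the limit for 5 pigs in 11 groups. The limit is set so that chance gives about 1 in 20 for independent groups of normally distributed values. Here it was applied to FPKM without logs, which need not be so distributed. These quantities share pigs and some were chosen because they were called, so the count of 11 is a description only. Control 2 was the pig in 6 of the 11. It stood apart in CLDN11 (FPKM of 205), CLDN10 (2.90), CLDN2 (1.06), F11R (54.2), the theca and luteal marker sum (2546) and the leukocyte marker sum (19.3). Among the control pigs, control 5 stood apart in the smooth muscle and pericyte marker sum (1822).

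In the rpFSH treatment group, rpFSH 1 stood apart in RAB13 (FPKM of 30.0) and in the theca and luteal marker sum (1324). CLDN23 was at 0.189 in rpFSH 2, which alone of its group had more than 1 count. CLDN4 was at 0.519 in rpFSH 3, a level far below that of controls 2 and 5. Controls 2 and 5 do not appear here for CLDN3, OCLN or the epithelial sum, because a gap from 1 pig to the next is small where 2 pigs of 5 are high.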

How the results depend on the processing

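The count of protein-coding loci called, 468, was within 1.5 times of itself with other size factors, with DESeq2, without the filter and with all loci fitted together, and was 172 with limma on log2(FPKM + 1), 236 with a pseudocount of 0.1, and 145 with a mean FPKM of at least 1, where fewer loci were tested. The limma fold change is the ratio of group mean FPKM, the same at both pseudocounts. Members called were 1 with limma at either pseudocount, which was CLDN23 (-2.24, or -0.20 on log2(FPKM + 1), short of the limit). Calls of CLDN23 in any fit are a description only, as it passed the filter only through the control group. Tight junction list genes called were 0 and 1 with limma at the pseudocounts of 1 and 0.1 (MARVELD3), and 1 at a mean FPKM of at least 1 (CLDN4). Adherens junction list genes called were 0 with limma at both and 1 at a mean FPKM of at least 1 (CDH1). Without both control 2 and control 5, chosen after seeing the data, 423 loci (306 higher and 117 lower), 0 members, 4 tight junction list genes (F11R and MICALL2 higher, CLDN6 and CLDN18 lower) and 1 adherens junction list gene (NECTIN1, lower) were called, and none of the 6 called with all pigs. MICALL2, CLDN6, CLDN18 and NECTIN1 are named after their values were seen, and CLDN6 passed the filter only through the control group. With all pigs 77 of 468 were higher, and the cause of this shift was not tested. Leaving out 1 pig at a time gave 378 to 565 loci, 0 to 1 members (CLDN23 without rpFSH 2, CLDN1 without rpFSH 3), 3 to 5 tight junction and 1 to 2 adherens junction list genes.

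The log2 fold change of CLDN11 turned to 0.96 and that of OCLN to 0.61 without controls 2 and 5. Leaving out 1 pig gave -1.76 to 1.08 for CLDN11. The difference of CLDN11 on log2(FPKM + 1), -0.05, turned to 0.000328 with upper-quartile scaling, 1.12 with medians and 0.79 without controls 2 and 5, and was -0.41 to 0.86 when 1 pig was left out. That of OCLN, -0.25, turned to 0.0651 with medians and 0.21 without controls 2 and 5. The signs of CLDN1, CLDN12, CLDN23 and TJP1 were kept under the alternatives run. The call of CLDN10 was lost with limma by its P (ratio of means, -1.35; -0.48 on log2(FPKM + 1)) and with the replicate block (-1.03).

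The exact permutation test of CLDN3 (-1.08) was not passed with medians (-0.70) or without controls 2 and 5 (-0.33), nor in 7 of 10 tests without 1 pig (without control 2, control 5 or any rpFSH pig). Over all 10 of these tests the difference was -1.37 to -0.70. For CLDN10 it was passed with medians (-0.36) and without control 1 or control 4 (-0.60 to -0.24 when 1 pig was left out), for CLDN1 without control 2 (-0.28 to -0.15) and for CLDN12 without rpFSH 5 (-0.14 to -0.0607). For CLDN23 (-0.20) it was passed whichever pig was left out. This is a description only, as CLDN23 passed the filter only through the control group and most rpFSH pigs were under the floor of counts. The causes were not tested. The difference of the epithelial marker sum, -1.72, was -1.40 without MAL2, chosen after seeing the data, and did not pass the exact test. Summing all protein-coding loci of a symbol changed nothing, as each had 1. With median FPKM, CLDN3 came after OCLN and CLDN10, and 3 in place of 4 neighbours differed, and 0 pairs of genes correlated with a pseudocount of 0.1 or without the 2 farthest pigs.

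Pigs of the 2 groups share numbers, and the methods describe no pairing. Deviations of same-numbered pairs had r between -0.294 and -0.0266 (pooled -0.137), and 0 of 5 control pigs were closest to their own number. With the replicate number as a block, edgeR called 190 loci, 1 member (CLDN23), 1 tight junction (MARVELD3) and 1 adherens junction list gene (NECTIN4), and the log2 fold change of CLDN11 was 0.27. By sign flips of 5 pairs, CLDN3 (-1.08) and CLDN23 (-0.20) did not pass the exact test, where the smallest p possible is 0.0625. Depth limits CLDN23, CLDN2 and NECTIN4, which had 0 to 18 counts in each rpFSH pig.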
